A study of Mus musculus with 2 samples.

Results

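The postsynaptic scaffold genes described here are 10 genes of excitatory synapses: Dlg2, Dlg3, Dlg4, Dlgap1, Dlgap3, Shank1, Shank3, Homer1, Homer3 and Baiap2. They were taken by gene name from the transcript models of 2 long-read RNA libraries. Reads assigned to the 10 genes numbered 905 in replicate 1 and 888 in replicate 2, in 197 of 122607 and 190 of 115971 mouse transcript models. They are 10 of 18311 known genes with reads in either library.

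Both libraries belong to a single group of B6CASTF1/J males, a cross of C57BL/6J with CAST/EiJ, sampled at 14 days of age. The tissue is the hippocampus, which the labels name as a layer. Each was made, per the labels, from pooled RNA of 3 animals, starting from 2 µg, and no treatment is named. The libraries held 821324 and 743862 mouse reads, so 1 read stood for 1.22 and 1.34 CPM (reads per 1000000 mouse reads), and a count of 0 allowed up to 3.65 and 4.03 CPM. The sample labels name different animals for the replicates while the experiment label repeats those of replicate 1, so the spread between libraries may be technical.

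With a single group there is no contrast between conditions. Each test below compares the libraries with counting error only, and intervals and floors cover counting error only. Of the cell type marker lists, 5 of 5 tested myelinating oligodendrocyte genes (among them Mbp, Cnp, Mobp and Mag) were called lower in replicate 2, and the list of 6 summed to 5708 and 2855 CPM. Of 4 tested astrocyte genes, 1 was called lower, Aldoc. Markers of glutamatergic neurons summed to 3202 and 3279 CPM, of GABAergic neurons to 317 and 364, of hippocampal neurons to 454 and 484 and of microglia to 200 and 204, and none of these genes was called. Over all genes tested, 140 of 8875, or 1.58%, were called. The part of the oligodendrocyte difference in any value below was not tested.

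At an excitatory synapse, receptors are held opposite the release site by a layered protein lattice, the postsynaptic density. Membrane-associated guanylate kinases of the Dlg family (Dlg4 encodes PSD-95, Dlg2 PSD-93 and Dlg3 SAP102) bind the tails of glutamate receptors. Dlgap proteins (also called SAPAP or GKAP) link them to Shank proteins, Homer proteins tie Shank to metabotropic receptors and to calcium stores, and Baiap2 (IRSp53) connects the lattice to actin.

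Baiap2 and Dlgap1 were the most abundant of the 10 genes, at 208 ± 15.5 and 200 ± 4.93 CPM (mean ± SD, n = 2 here and below), and Dlg2 was the least, at 19.9 ± 2.30. A long read stands for 1 transcript whatever its length, so CPM was not divided by length. The longest complete coding transcript annotated has 6326 bases for Dlg4, 7365 for Shank3, 9826 for Shank1 and 7813 for Dlg2. It has 7173 for Dlgap1 and 4005 for Baiap2. The longest annotated form need not be the form that the reads came from. Any effect of transcript length on these levels or on the family shares below was not tested. The 10 genes together reached 1102 CPM in replicate 1 and 1194 in replicate 2, a mean of 1148 ± 65.0. On annotated transcripts alone the order differs: Dlgap1 had 37.2 CPM, below Baiap2 (172), Homer1 (85.4), Homer3 (71.7), Dlgap3 (64.6) and Dlg3 (62.7). With all classes counted, between Baiap2 and Dlgap1 at the top and Dlg2 came Dlgap3 (166 ± 4.41), Dlg3 (135 ± 1.37), Homer3 (110 ± 14.9), Homer1 (104 ± 27.2), Dlg4 (86.1 ± 15.1), Shank3 (75.5 ± 3.48) and Shank1 (42.5 ± 8.39 CPM). The libraries overlapped between neighbours in this order for Baiap2 and Dlgap1, Homer3 and Homer1, Homer1 and Dlg4, and Dlg4 and Shank3. The other 5 pairs of neighbours did not overlap.

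**Figure D1:**
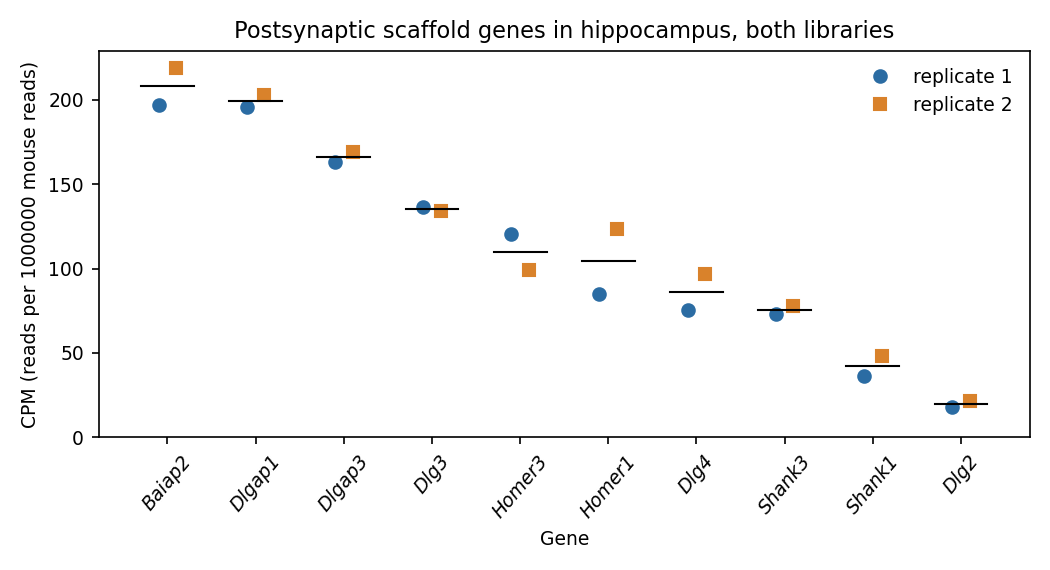
CPM (reads per 1000000 mouse reads, vertical axis) of each of the 10 genes (horizontal axis) in replicate 1 (circles) and replicate 2 (squares), with the mean as a line. Levels run from 208 CPM for Baiap2 to 19.9 CPM for Dlg2, and the libraries lie farthest apart for Homer1.

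No gene of the 10 was called different between the libraries by Fisher's exact test (two-sided, Benjamini-Hochberg adjusted p under 0.05 over 8875 genes), where 140 genes, or 1.58% of those tested, were called. At an unadjusted p under 0.05 there was 1 of the 10, Homer1, against 911 of all genes tested. The median log2 ratio of replicate 2 over replicate 1 was 0.12 over the 10 genes and 0.01 over all genes tested. CPM was higher in replicate 2 for 8 of the 10 genes and for 4544 of the 8875.

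The Dlg family was led by Dlg3. Dlg3 (chrX:100767722-100818410, mm10, plus strand) gave 112 and 100 reads in replicates 1 and 2, and Dlg4 (chr11:70016942-70047522, plus strand) had 62 and 72. Dlg2 (chr7:90476672-92449247, plus strand) had 15 and 16 reads, and the family's remaining member Dlg1 had 32 and 29. Dlg3 therefore held 48.4% ± 3.25 of the family's reads, Dlg4 30.6% ± 3.62, Dlg1 13.9% ± 0.789 and Dlg2 7.08% ± 0.414. In each library the Wilson 95% interval of Dlg3 (44.1% to 57.2% and 39.6% to 52.7%) lay above that of Dlg1 and Dlg2. Against Dlg4 it lay above in replicate 1 (22.5% to 34.3%) and met it in replicate 2 (27.3% to 39.7%).

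**Figure D2:**
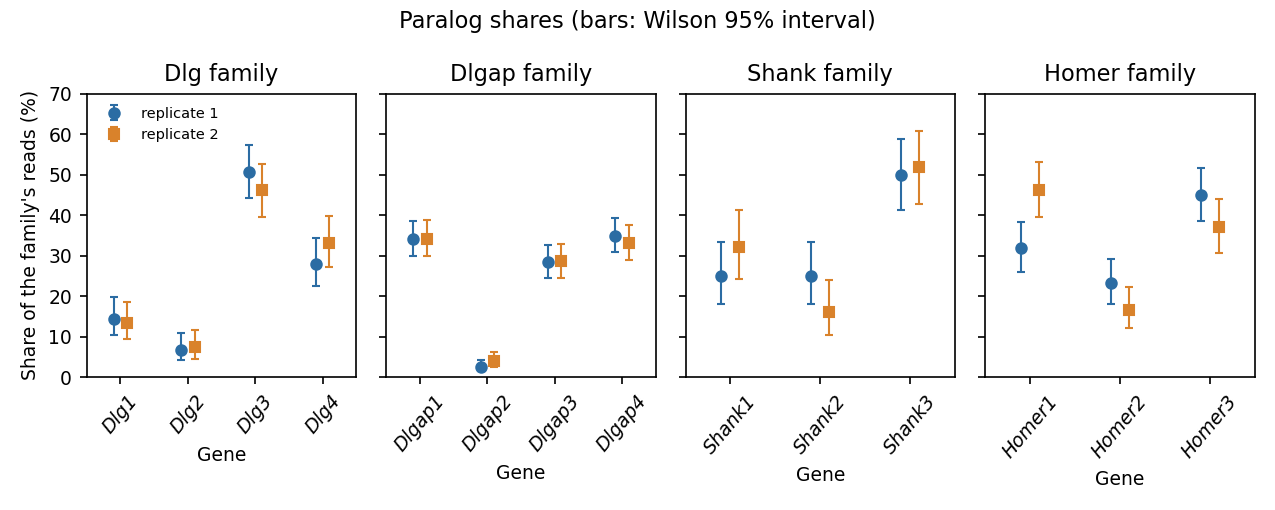
Share of each family's reads (%, vertical axis) held by each paralog (horizontal axis) in replicate 1 (circles) and replicate 2 (squares), with Wilson 95% intervals as bars. Dlg3 and Shank3 hold about as many reads as the rest of their families together, Dlgap1 and Dlgap4 are level near 34%, and the Homer1 share differs most between the libraries (31.8% and 46.2%).

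Dlg3 was read in 4 splice forms that combine a pair of short coding exons. They are shown because each was in some reads and skipped in others. Both stretches were taken from GENCODE M21 transcript Dlg3-202. Capitals mark the variable exon, and lower case the 15 coding bases on either side.
Dlg3 54-base exon, chrX:100771307-100771360, plus strand: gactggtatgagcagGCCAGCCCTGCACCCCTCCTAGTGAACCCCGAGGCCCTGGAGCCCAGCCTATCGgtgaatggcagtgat
Dlg3 42-base exon, chrX:100811502-100811543, plus strand: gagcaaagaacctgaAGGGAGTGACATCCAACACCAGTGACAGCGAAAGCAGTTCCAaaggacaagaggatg
The first was held by 46 of 72 informative reads in replicate 1 and 29 of 54 in replicate 2, an inclusion of 58.8% ± 7.20. The second was held by 52 of 98 and 41 of 86 reads, or 50.4% ± 3.81.

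Since a long read covers both places, the exons could be read together on 1 molecule. Both exons were present in 24 of 72 reads in replicate 1 and 11 of 54 in replicate 2. The first alone was present in 22 and 18, the second alone in 11 and 14, and neither in 15 and 11. All 4 combinations thus occurred in both libraries. Of reads with the second exon, 24 of 35 and 11 of 25 also held the first, against 22 of 37 and 18 of 29 of the reads without it. Complete forms with both exons (Dlg3-202), the first alone (Dlg3-204) and neither (Dlg3-201) are annotated. The form with the second alone was a new combination of annotated splice sites in GENCODE M21 and held 11 and 14 of 78 and 58 reads of annotated and new Dlg3 transcripts, or 19.1% ± 7.10. A further annotated exon of 100 bases (chrX:100808053-100808152) was present in 2 of 98 and 1 of 86 reads.

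Dlg4 reads were mostly short. Of them 38 of 62 and 44 of 72 had a single exon, or 61.2% ± 0.127, and 37 and 44 of these lay over an annotated last exon. Reads with both the first and the last coding junction of an annotated Dlg4 transcript numbered 14 and 11, or 18.9% ± 5.16. Over genes with a coding sequence of the same class (2000 to below 3000 bases) the median was 75.0% and the 25th percentile 55.0%. Of 17 places with an internal Dlg4 exon spanned by at least 10 reads in each library, 16 held the same exon in every such read. At the other place, acceptors 9 bases apart were used, the upstream one in 9 of 12 and 8 of 11 reads and the downstream one in 3 and 2. Reads that end at a place do not inform it. The last exon from chr11:70031645, at a place among the 16, had 2 of 24 and 0 of 28 reads. The last exon from chr11:70044589 had 22 of 24 and 28 of 28. The first exon that ends at chr11:70018949 (annotated in Dlg4-203) began 5 of 6 and 8 of 10 reads whose first exon is annotated.

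Dlg2 was the sparsest, with 8 of 15 and 8 of 16 single-exon reads and no read with both coding end junctions. Genomic models held 9 of its 15 and 8 of its 16 reads. Only 10 and 11 sense reads lay over annotated Dlg2 exons. Counted so, Dlg2 had 13.5 ± 1.85 CPM in place of 19.9 ± 2.30, so its family share above includes reads outside annotated exons. Its spliced reads began at 3 annotated first exons spread over the gene, ending at chr7:90477875 (0 and 1 read), chr7:91711798 (2 and 2) and chr7:92235224 (2 and 0). These counts allow no ranking of the Dlg2 starts.

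Dlgap1 and Dlgap3, which bind the guanylate kinase domain of Dlg proteins, were both well covered. Dlgap1 (chr17:69969073-70821413, plus strand) had 161 and 151 reads and Dlgap3 (chr4:127169204-127237022, plus strand) 134 and 126. The log2 ratios between libraries were 0.05 for each. Within the Dlgap family, Dlgap1 held 34.2% ± 0.0921 of reads, Dlgap4 34.0% ± 1.31, Dlgap3 28.5% ± 0.128 and Dlgap2 3.31% ± 1.09. Reads with both coding end junctions made up 63.2% ± 0.596 for Dlgap1 and 63.0% ± 3.79 for Dlgap3, between the 25th percentile and the median of genes of that coding length.

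Dlgap1 differed among reads at its beginning, its middle and its end. Its beginning sets how much of the protein's amino end is made, and several first coding exons are joined to the same downstream exon. The annotated exon with 975 coding bases (ending at chr17:70516996) was used in 37 of 121 and 35 of 117 reads, or 30.2% ± 0.470. Most of the others used 1 of 3 shorter alternatives: one of 93 coding bases (ending at chr17:70521800) in 32 and 27 reads, one of 75 (chr17:70522262) in 37 and 43, and one of 81 (chr17:70522268) in 14 and 12. The shorter beginnings thus stood in most of these reads in both libraries.

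In the middle, an exon of 30 bases was kept or skipped, and an acceptor was chosen from a pair 84 bases apart. They are printed because both leave the reading frame in step and both vary in these reads. Capitals mark the variable stretch and lower case the neighbouring coding bases of GENCODE M21 transcripts Dlgap1-202 and Dlgap1-201.
Dlgap1 exon of 30 bases, chr17:70718196-70718225, plus strand: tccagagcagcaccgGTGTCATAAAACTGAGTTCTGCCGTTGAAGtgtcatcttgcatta
Dlgap1 stretch of 84 bases, chr17:70761075-70761158, plus strand: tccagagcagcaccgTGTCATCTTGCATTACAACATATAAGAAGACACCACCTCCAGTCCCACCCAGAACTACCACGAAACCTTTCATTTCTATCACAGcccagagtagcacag
The 30-base exon was in 88 of 129 and 82 of 126 reads, an inclusion of 66.6% ± 2.22. After it, the upstream acceptor, which keeps the 84 bases, was used in 75 of 88 and 73 of 82 reads, or 87.1% ± 2.68. Reads with the exon and the 84 bases were the most frequent, at 75 of 128 and 73 of 125. Reads without the exon but with the 84 bases followed at 37 and 41, reads with the exon alone numbered 13 and 8, and reads with neither 3 and 3.

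At its end, Dlgap1 used the last exon from chr17:70818025 in 113 of 135 and 99 of 130 reads. The upstream last exon, from chr17:70815194, was used in 22 and 31, or 20.1% ± 5.34. The annotated ends hold 207 and 216 coding bases. The 30-base exon was in 69 of 102 and 63 of 94 reads of the downstream end and in 16 of 22 and 19 of 31 of the upstream end. Among complete Dlgap1 forms, a new combination with the 93-base beginning, the 30-base exon and the downstream end had 18 of 82 and 17 of 71 reads of annotated and new transcripts (22.9% ± 1.41). Dlgap1-209 had 12 and 17 (19.3% ± 6.58), so the forms were level in replicate 2 and their intervals overlapped in both libraries. Dlgap1-211, which shares the 75-base beginning of Dlgap1-209 and lacks the 30-base exon, had 10 and 11 (13.8% ± 2.33). With incomplete matches counted in the total, the new combination held 12.0%. Annotated transcripts held 18.6% ± 1.75 of Dlgap1 reads, against 71.3% ± 1.08 over all known genes.

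Dlgap3 had a main form, Dlgap3-201, with 49 of 68 and 39 of 60 reads of annotated and new transcripts, or 68.5% ± 4.99. With incomplete matches counted in the total, its share was 33.8%. Its variable site was a pair of acceptors 33 bases apart. The stretch between them is shown in capitals, with the neighbouring coding bases of Dlgap3-201 in lower case.
Dlgap3 stretch of 33 bases, chr4:127235385-127235417, plus strand: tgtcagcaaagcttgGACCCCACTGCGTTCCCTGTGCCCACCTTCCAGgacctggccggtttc
It was kept in 110 of 122 and 98 of 111 reads, or 89.2% ± 1.33, and left out in 12 and 13. The first exon that ends at chr4:127169365 began 57 of 61 and 42 of 54 reads. The exon that ends at chr4:127195713, which also holds the start of the coding sequence, began 1 and 10. That difference between the libraries was not tested.

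Shank proteins form the deeper layer of the lattice, where they bind Dlgap and Homer proteins. Shank3 (chr15:89499623-89560261, plus strand) had 60 and 58 reads and Shank1 (chr7:44310253-44360572, plus strand) 30 and 36. Shank3 held 50.9% ± 1.26 of the family's reads, Shank1 28.6% ± 5.05 and Shank2 20.5% ± 6.31. The Wilson intervals of Shank1 and Shank2 overlapped in replicate 1 and not in replicate 2, and that of Shank3 lay above both in each library (41.2% to 58.8% and 42.6% to 60.8%).

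Most Shank reads carried no splice junction. Single-exon reads made up 44 of 60 and 45 of 58 for Shank3 (75.5% ± 3.01) and 25 of 30 and 31 of 36 for Shank1 (84.7% ± 1.96), against 12.1% ± 1.25 over all known genes. Of these, 44 and 43 of Shank3 and 23 and 29 of Shank1 lay over an annotated last exon. No read of either gene matched a whole annotated transcript. Reads with both coding end junctions were 0 of 60 and 1 of 58 for Shank3 and 0 of 30 and 0 of 36 for Shank1. A count of 0 allows up to 5% of Shank3 reads in replicate 1, and up to 10.0% and 8.33% of Shank1 reads. Genes with a coding sequence of at least 4000 bases had a median of 19.8% and a 25th percentile of 3.69%. The longest annotated coding sequences are 5415 bases for Shank3 and 6501 for Shank1. The upstream exons of both genes were not resolved here.

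**Figure D3:**
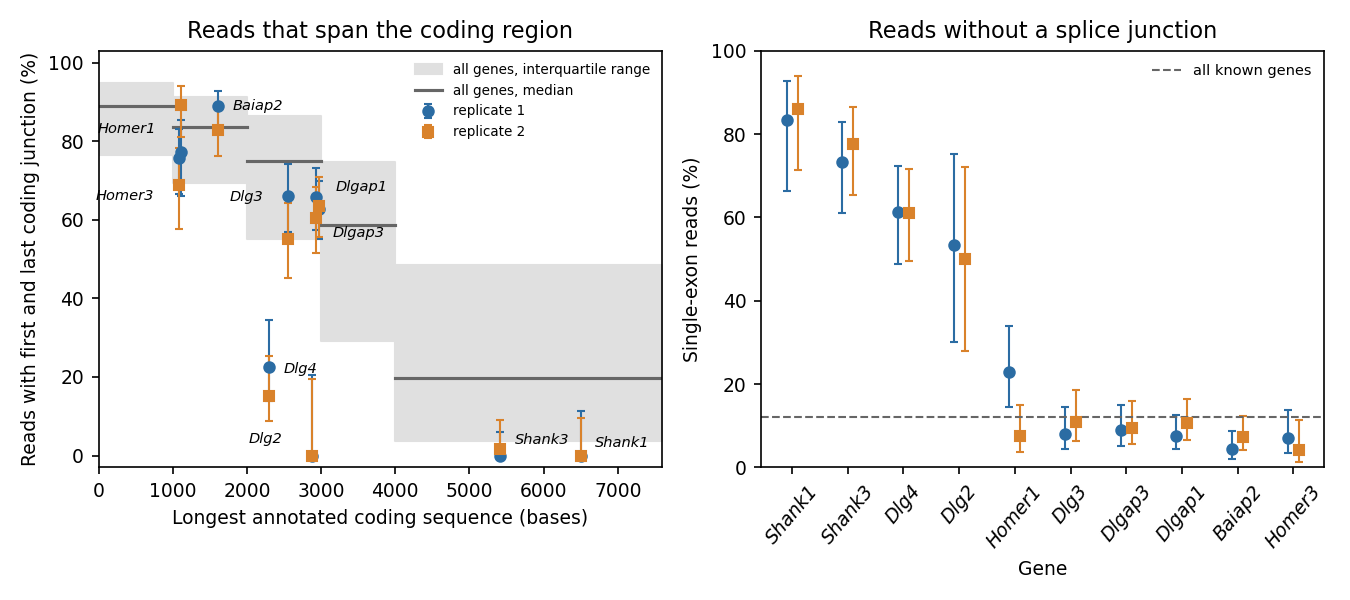
Left, share of reads with the first and last coding junction (%, vertical axis) against the longest annotated coding sequence (bases, horizontal axis) for the 10 genes in replicate 1 (circles) and replicate 2 (squares), over the median and interquartile range of all genes by coding length. Right, share of single-exon reads (%) per gene, with all known genes as a dashed line. Bars are Wilson 95% intervals. Dlg2, Dlg4, Shank1 and Shank3 lie below the 25th percentile on the left and above 50% on average on the right. The bars of Shank1 and Shank3 on the left reach above that percentile.

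On the opposite strand of Shank1, reads far outnumbered those of the gene. Antisense models over its exons held 966 reads in replicate 1 and 1245 in replicate 2, or 1176 and 1674 CPM (1425 ± 352), against 30 and 36 sense reads. Antisense reads were 97.0% (Wilson 95% interval 95.7% to 97.9%) and 97.2% (96.1% to 98.0%) of all reads over the exons, or 32.2 and 34.6 for each sense read. They were counted apart and enter no Shank1 level above.

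Nearly all of these antisense reads stood in 1 model per library, with 950 of 966 and 1237 of 1245 reads. The model is placed at chr7:44358013 (1 base long in the deposited annotation) in replicate 1 and at chr7:44358001-44358530 in replicate 2. Those places lie 679 and 667 bases after the end of the Shank1 coding sequence (chr7:44357334), within the untranslated part of the last exon, which runs to chr7:44360572. Bounds of single-exon models differ between the libraries, so they do not mark read ends. Single-exon models held 961 and 1242 of the antisense reads. The annotated neighbour on the minus strand, 1700008O03Rik (chr7:44360043-44385820), overlaps the end of Shank1 and gave 2 reads in each library.

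By reads, the Shank1 antisense locus ranked 4 of 17323 antisense loci in replicate 1 and 4 of 16497 in replicate 2. Only 62 and 28 known genes had more reads than it. It held 1.32% and 1.89% of all reads of antisense loci.

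None of the other 9 genes had more antisense than sense reads over its exons in both libraries. Dlg2 came nearest, with 8 and 13 antisense against 10 and 11 sense reads. Homer3 had 19 and 22, all from its annotated minus-strand neighbour Ddx49. Baiap2 had 13 and 9, Dlg4 10 and 8, Shank3 5 and 2 and Dlgap1 3 and 3. Dlg3, Dlgap3 and Homer1 had 0 in both libraries.

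**Figure D4:**
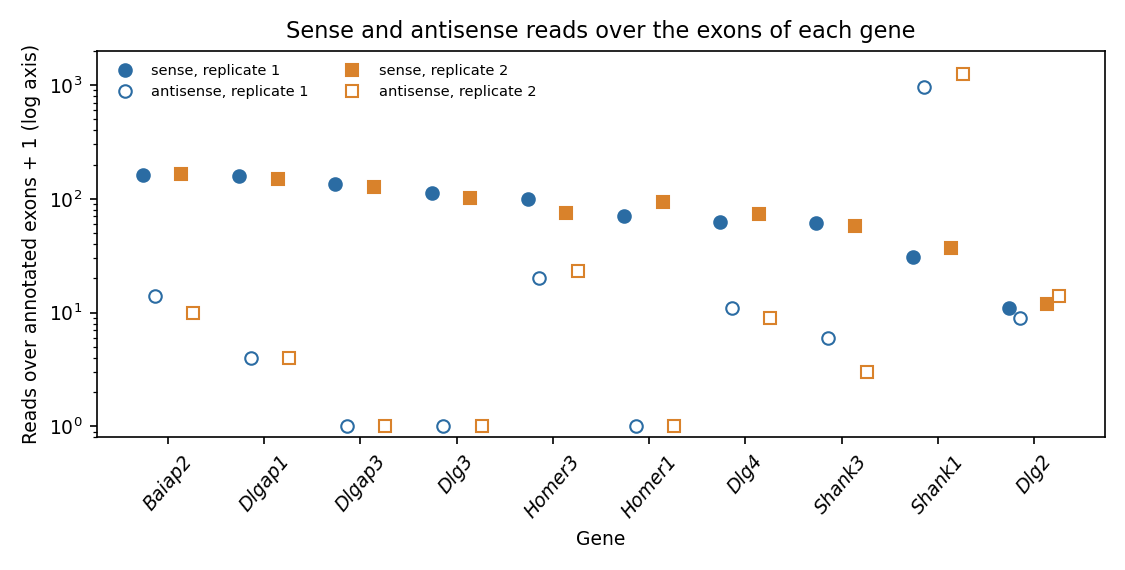
Reads over the annotated exons of each gene plus 1 (log axis) on the gene's strand (filled) and on the opposite strand (open), in replicate 1 (circles) and replicate 2 (squares). Shank1 stands apart, with 966 and 1245 antisense reads over 30 and 36 sense reads.

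Homer proteins bind Shank, metabotropic glutamate receptors and calcium release channels, and the long forms join into tetramers through a coiled coil. Homer1 (chr13:93299635-93405129, plus strand) had 70 and 92 reads. Its CPM of 85.2 and 124 made it the gene of the 10 with the largest ratio between the libraries, but the difference did not pass the test (log2 ratio 0.53, unadjusted Fisher p = 0.0222, adjusted p = 0.355). Homer3 (chr8:70282827-70294361, plus strand) had 99 and 74 reads, and its log2 ratio between libraries was -0.27 (Fisher p = 0.786 after adjustment). The order of the pair differed between the libraries: Homer3 was higher in replicate 1 and Homer1 in replicate 2. Homer1 held 31.8% and 46.2% of the family's reads, Homer3 45.0% and 37.2%, and Homer2 23.2% and 16.6%.

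The short form of Homer1, Homer1a, is a known immediate early gene product that lacks the coiled coil and loosens the lattice. It arises when the transcript runs on past its coding exon number 5 and ends in what is otherwise intron. The ends of the 2 coding sequences are printed because they tell the forms apart. Lower case marks 30 coding bases of that shared exon (chr13:93355940-93356079), and capitals mark what follows: in the short form the extension with its stop codon TAA (Homer1-204), in the long form the next exon (Homer1-203).
Homer1 short form, chr13:93356080-93356113, plus strand: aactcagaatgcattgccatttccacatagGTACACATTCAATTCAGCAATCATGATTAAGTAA
Homer1 long form, chr13:93386345-93386380, plus strand: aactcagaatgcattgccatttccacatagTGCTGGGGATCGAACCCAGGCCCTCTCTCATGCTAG
Long forms continue through further exons to a coding sequence of 1098 bases in Homer1-203, against 558 in Homer1-204.

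Long forms prevailed. They had 47 reads in replicate 1 and 76 in replicate 2 (79.7 ± 31.8 CPM), and the short form 6 and 8 (9.03 ± 2.44 CPM). The short share was 11.3% (Wilson 95% interval 5.29% to 22.6%) and 9.52% (4.91% to 17.7%), a mean of 10.4% ± 1.27. The intervals of the short share overlapped between the libraries. A read counted as short holds the junction before the last exon of the short form. In Homer1-204 that exon runs from chr13:93355940 to chr13:93360462. The last exon of Homer1-203 runs from chr13:93402041 to chr13:93403681. Any effect of the length of these exons on the short share was not tested. All 6 and 8 short reads ended in that extension. None used the annotated last exons that lie farther into the same intron (Homer1-205 and Homer1-206), which allows up to 5.66% and 3.57% of the informative reads.

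Some single-exon reads hold no junction with that exon and were left out of that share. Of these, 2 and 3 lay within the last exon of the short form and 11 and 4 within that of the long form. Homer1 single-exon reads as a whole numbered 16 of 70 in replicate 1 and 7 of 92 in replicate 2. All 54 and 84 complete-class reads began at the same first exon, which ends at chr13:93305302, so both forms were read from 1 start. The 36-base exon printed in capitals for the long form was present in 43 of 47 and 72 of 74 informative reads, or 94.4% ± 4.11.

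The leading Homer3 form, Homer3-203, held 66 of 81 and 45 of 57 reads of annotated and new transcripts (80.2% ± 1.79), and 76 of 77 and 52 of 52 reads began at the first exon that ends at chr8:70283100. Of its 8 places with an internal exon, 2 held the same exon in every informative read. At the others the leading exon was in nearly all reads, such as 87 of 91 and 64 of 67, or 78 of 80 and 53 of 57.

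Baiap2 (chr11:119942763-120006782, plus strand) had 162 and 163 reads, and 85.9% ± 4.29 of them held both coding end junctions, within the middle range of genes of 1000 to below 2000 coding bases (69.3% to 91.3%). It varied at an acceptor and at its last exon. The acceptor choice keeps or drops a stretch of 120 coding bases, shown in capitals with neighbouring bases of Baiap2-201.
Baiap2 stretch of 120 bases, chr11:119996889-119997008, plus strand: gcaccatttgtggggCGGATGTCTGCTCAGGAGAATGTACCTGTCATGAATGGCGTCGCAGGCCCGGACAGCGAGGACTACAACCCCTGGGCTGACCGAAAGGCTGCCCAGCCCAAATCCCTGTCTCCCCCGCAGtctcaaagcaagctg
The stretch was kept in 127 of 151 and 110 of 143 reads, or 80.5% ± 5.08. Of whole transcripts, Baiap2-202, which keeps it, held 73.8% ± 1.70 and Baiap2-203, which drops it, 17.3% ± 3.83.

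The last exon decides the end of the Baiap2 protein, which in one form is a signal for binding PDZ domains. The 3 coding ends are set side by side, with the last exon's coding bases and stop codon in capitals after the 18 bases before them.
Baiap2-202 end, chr11:120001074-120001104, plus strand: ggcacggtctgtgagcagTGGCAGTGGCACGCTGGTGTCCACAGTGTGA
Baiap2-204 end, chr11:120000552-120000590, plus strand: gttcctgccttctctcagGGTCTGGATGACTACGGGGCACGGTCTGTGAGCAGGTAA
Baiap2-201 end, chr11:120006359-120006428, plus strand: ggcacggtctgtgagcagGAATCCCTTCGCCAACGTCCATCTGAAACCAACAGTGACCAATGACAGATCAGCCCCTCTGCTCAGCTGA
The last exon of the first was used in 140 of 154 and 141 of 149 reads, or 92.8% ± 2.63. That of the second had 9 and 7 reads (5.27% ± 0.810). That of the third was used by 5 and 1 (1.96% ± 1.82), but Baiap2-205 ends in the same exon with no coding bases there. By their last junction 2 and 0 of those reads match Baiap2-201, and 2 and 0 match Baiap2-205. Of 12 places with an internal Baiap2 exon, 8 held the same exon in every informative read, and the acceptor pair above is one of the others. Reads that end at a place do not inform it, so the place where Baiap2-204 ends is among the 8.

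**Figure D5:**
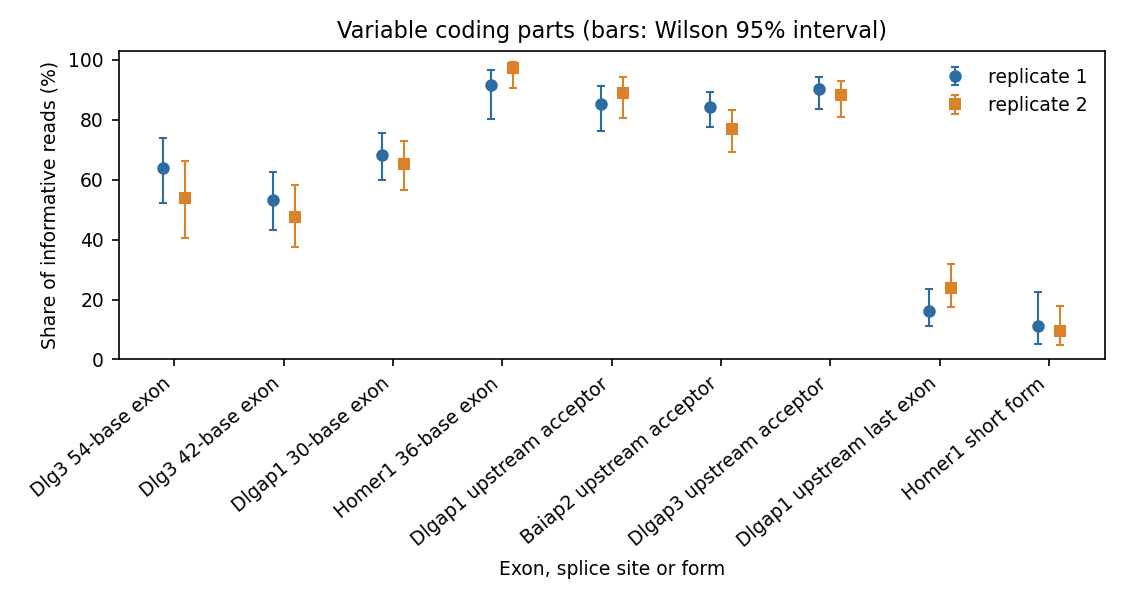
Share of informative reads (%, vertical axis) that hold each variable exon, use the upstream acceptor or last exon, or end in the Homer1 short form (horizontal axis), in replicate 1 (circles) and replicate 2 (squares), with Wilson 95% intervals as bars. Replicate intervals overlap at every site, from 94.4% for the 36-base Homer1 exon to 10.4% for the Homer1 short form.

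Across the 10 genes, 88 places with an annotated internal exon were spanned by at least 10 reads in each library. Overlapping variants were taken as 1 place. Of these places, 52 held the same exon in every such read. A single differing read takes a place out of that count, so the count depends on depth too. Reads that end at a place do not inform it. The 52 thus include places where some reads have their last exon. Among them are chr13:93355940 in Homer1 (6 and 8 reads), chr17:70815194 in Dlgap1 (22 and 31) and chr11:120000552 in Baiap2 (9 and 7). At a Dlg3 place left out, for example, the leading exon was in 74 of 75 and 58 of 58 reads. At the minimum of 20 reads, 4 exons in 3 genes had a mean inclusion of 5% to 95%: the 54-base and 42-base exons of Dlg3, the 30-base exon of Dlgap1 and the 36-base exon of Homer1. All 4 have lengths divisible by 3, as had 51.9% of the 2272 variable exons of all genes. The acceptor pairs of Dlg4, Dlgap1, Dlgap3 and Baiap2 also lie a multiple of 3 bases apart. The share of such pairs over all genes was not computed, and these sites were added after their values were seen. In Dlg4 the downstream acceptor rests on 3 and 2 reads. None of the 4 exons was called different between the libraries by Fisher's exact test, where 1 of 2272 exons, or 0.044%, was called. None of 12 transcripts of these genes was called, where 17 of 7227, or 0.235%, were.

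Of 33 related postsynaptic genes, 30 were tested and none was called in either direction. Over all genes tested 140 of 8875, or 1.58%, were called, and at that share lists as small as this and those below can hold none. The median log2 ratio of the related postsynaptic genes was 0.26, beside 0.01 over all genes tested. The most abundant were the cortactin gene Cttn (395 ± 10.4 CPM), Dlgap4 (199 ± 3.27), Begain (173 ± 9.43), which encodes a guanylate kinase domain binder, and Ppp1r9b (170 ± 23.4), which encodes spinophilin. A further list of 15 genes held receptors and other membrane proteins bound by the scaffolds, among them Nlgn and Cacng genes. Of these genes, 13 were tested and none was called (median log2 ratio 0.14). They were led by the AMPA receptor subunit Gria2 (456 ± 5.69), the NMDA receptor subunit Grin1 (440 ± 19.0), Gria1 (313 ± 30.9) and Grin2b (59.9 ± 14.1 CPM). Gria2, Grin1 and Gria1 transcripts each stood above every one of the 10 scaffold genes in both libraries.

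All 10 genes of actin partners were tested and none was called (median log2 ratio 0.0032), beside 1.58% of all genes tested. The GTPase genes Cdc42 (457 ± 41.2 CPM) and Rac1 (219 ± 0.0224), whose products act with Baiap2, and the WAVE complex genes Nckap1 (334 ± 28.1) and Wasf1 (225 ± 4.15) led that list. Of 3 genes of the inhibitory scaffold, none was called (median log2 ratio -0.03). Gphn, which encodes the scaffold gephyrin, had 148 ± 2.28 CPM and Nlgn2 74.5 ± 12.4. No gene of these 4 lists had 0 reads.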

How the data were processed

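The deposited tables give raw read counts per transcript model, per the file headers, beside each model's number of exons and length, and the deposited annotation gives exon positions. The authors used mm10 with GENCODE M21, as a note deposited with the tables states. The aligner and caller are not given in the sources used. The 10 genes and all lists were chosen with earlier results of these data known.

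Counts were summed per gene over all models of known genes, and CPM is per 1000000 mouse reads, ERCC spike-ins left out. The genes tested had 20 or more reads in all. Transcripts tested had 5 or more reads and 10% of a gene with 20 reads in each library. Internal exons tested had 20 informative reads per library, with 5% to 95% mean inclusion. Each was compared by Fisher's exact test with Benjamini-Hochberg adjustment over all tested. Log2 ratios add 0.5 reads to each count. With 1 group of 2 replicates, edgeR's quasi-likelihood test has no contrast, and edgeR 4.0.16 gave TMM library sizes as an alternative. Junction, exon and form counts use spliced models, incomplete ones included, while first exons and whole transcripts leave incomplete ones out. Overlapping annotated internal exons were merged into places, informed by reads that start before and end after them. Sequences are coding parts of GENCODE M21 transcripts (GRCm38). The functions were tested on simulated data (Python 3.11.15, pandas 2.3.3, scipy 1.17.1). Named genes were the 10 genes, the 4 most abundant of each related list and, since their counts were small, called markers. Alternatives counted annotated transcripts alone or incomplete matches too, and other minimums and library sizes. Sites with a pair of acceptors or ends were added after their values were seen. Values of some listed genes are not reported here.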

Additional observations from a re-analysis of the deposited data

How the results depend on the processing

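No gene, transcript or exon of the 10 genes was called under any alternative run: no minimum of reads, annotated transcripts alone (6 of the 10 genes tested), TMM library sizes, and a minimum of 10 reads for transcripts and exons. The direction of every log2 ratio held on annotated transcripts alone, for the 6 genes tested there. It also held with TMM library sizes, which shift the ratios of all genes alike. The minimum of reads only selects genes and cannot change a ratio. Of all genes, 74 of 6509 were called on annotated transcripts alone, against 140 of 8875, with fewer genes tested. With at least 10 reads in each library, 0 of 3936 exons were called by Fisher's exact test, against 1 of 2272. On annotated transcripts alone the 10 genes summed to 504 CPM in place of 1148. Dlgap1 had 37.2 CPM in place of 200, Dlg4 9.09 in place of 86.1, Dlg2 1.22 in place of 19.9, and Shank1 and Shank3 had 0. That class leaves out incomplete and genomic models, new combinations and new splice sites. With incomplete matches counted, the share of Dlgap3-201 was 33.8% in place of 68.5% and that of the leading Dlgap1 form 12.0% in place of 22.9%. Without each replicate in turn the sum ran from 1102 to 1194 CPM, the Homer1 short share from 9.52% to 11.3% and the antisense level over Shank1 from 1176 to 1674 CPM. The annotated share was not recomputed for the leading Dlgap1 form, which is a new combination. No paired analysis was possible because there is 1 group. At this depth the counts of Dlg2, of Shank1 and of the Homer1 short form limit any share to wide intervals.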

Other observations

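With at least 10 informative reads in each library, a Shank3 exon of 28 bases (chr15:89556721-89556748, mm10) was in 3 of 16 reads in replicate 1 and 1 of 13 in replicate 2. Neither junction of this exon is annotated. Its length is not a multiple of 3, unlike the 4 exons that passed the minimum of 20 reads, which are annotated. Over the whole gene body, introns included, antisense reads numbered 55 and 47 for Dlg2 and 31 and 16 for Dlgap1, against 8 and 13 and 3 and 3 over their exons. For Shank1 the gene body gave 968 and 1246, close to the 966 and 1245 over its exons.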
